A study of Arabidopsis thaliana with 6 samples.

Results

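Jasmonates are lipid-derived hormones that plants make after wounding, in defence and during stamen development. The set described here holds 38 Arabidopsis genes of jasmonate synthesis, conjugation, perception, repression, turnover and response, out of 33617 genes in the deposited table. The genes were taken from a list of locus identifiers grouped by known role. A gene with under 60 fragments (sequenced cDNA pieces assigned to it) over all 6 libraries counted as unmeasured, which left 19 of the 38 genes measured.

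Synthesis starts in the chloroplast, where lipoxygenases (LOX) oxidise linolenic acid, allene oxide synthase (AOS) acts on the product and allene oxide cyclases (AOC) close the ring of the jasmonate precursor OPDA. OPDA is reduced and shortened in the peroxisome, and JAR1 joins the resulting jasmonic acid to isoleucine. This conjugate brings the receptor COI1 together with JAZ repressor proteins, the JAZ proteins are degraded, and MYC transcription factors are released to act on genes that include those of jasmonate synthesis and of the JAZ proteins themselves.

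Messenger RNA was sequenced from untreated whole seedlings aged 7 days, kept in long days at 23 °C on MS medium. One genotype was cog1-2D, described in the labels as an activation-tagging mutant, that is, a line carrying an inserted element that drives a gene near it, here COG1, a Dof-type transcription factor. The wild type (wt) was Col-0 without the mutation, and both were grown alike. Each genotype had 3 libraries, numbered 0, 1 and 2, with 10575945 to 11202122 fragments each. The labels name 1 mutant line and do not say whether the replicates came from separate cultures, so p-values measure only the spread between these samples, which may be technical.

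The cog1-2D and wt libraries could not be checked by COG1 itself. COG1 lies on the minus strand and held 0, 3 and 3 fragments in cog1-2D replicates 0, 1 and 2, and 0 in each wt library. Genes on that strand were close to unmeasured throughout, at 0.135% of the fragments of protein-coding genes, and the share was lowest in wt replicate 1, at 0.0301% against 0.139% to 0.169% in the other libraries. Green-tissue markers (4 genes) summed to between 24326 and 25431 CPM (fragments scaled to a common library size) in cog1-2D and between 20254 and 25492 CPM in wt. Nearly all of this sum was the plus-strand gene LHCB1.3, at 24257 to 25354 CPM in cog1-2D and 20168 to 25475 CPM in wt. In wt replicate 1 the 3 minus-strand members of that list were at 3.51 to 8.93 CPM, against 11.6 to 53.7 CPM in the other libraries.

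The strand of a gene decided which jasmonate genes could be described. Of the 38 genes 17 lie on the minus strand, and all 17 were unmeasured. Of the 21 on the plus strand 19 were measured and 2 were not, these being DAD1, a lipase of anther jasmonate synthesis, with 1 fragment, and the repressor gene JAZ8 with 29. The lowest measured gene was JAZ7 with 140 fragments over 6 libraries, and the highest unmeasured ones were AOS with 33 and JAZ8 with 29. Unmeasured genes of the 38 were therefore AOS, the reductase gene OPR3, the later peroxisomal genes OPCL1 and ACX1, the receptor gene COI1 and the JAZ adaptor gene NINJA. MYC2, MYC4, JAZ2, JAZ5, JAZ6, the turnover genes CYP94B3 and ST2A, and all 4 response markers (VSP1, VSP2, PDF1.2 and TAT3) were unmeasured too. JAZ5, CYP94B3, ST2A and TAT3 were at 0 in every library, and a count of 0 allows up to 0.0462 CPM over the 6 libraries. This limit covers counting error only. It does not bear on the plants' transcripts where a strand as a whole was not counted. The 4 response markers together therefore gave no reading of how active jasmonate signalling was in either genotype.

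**Figure D1:**
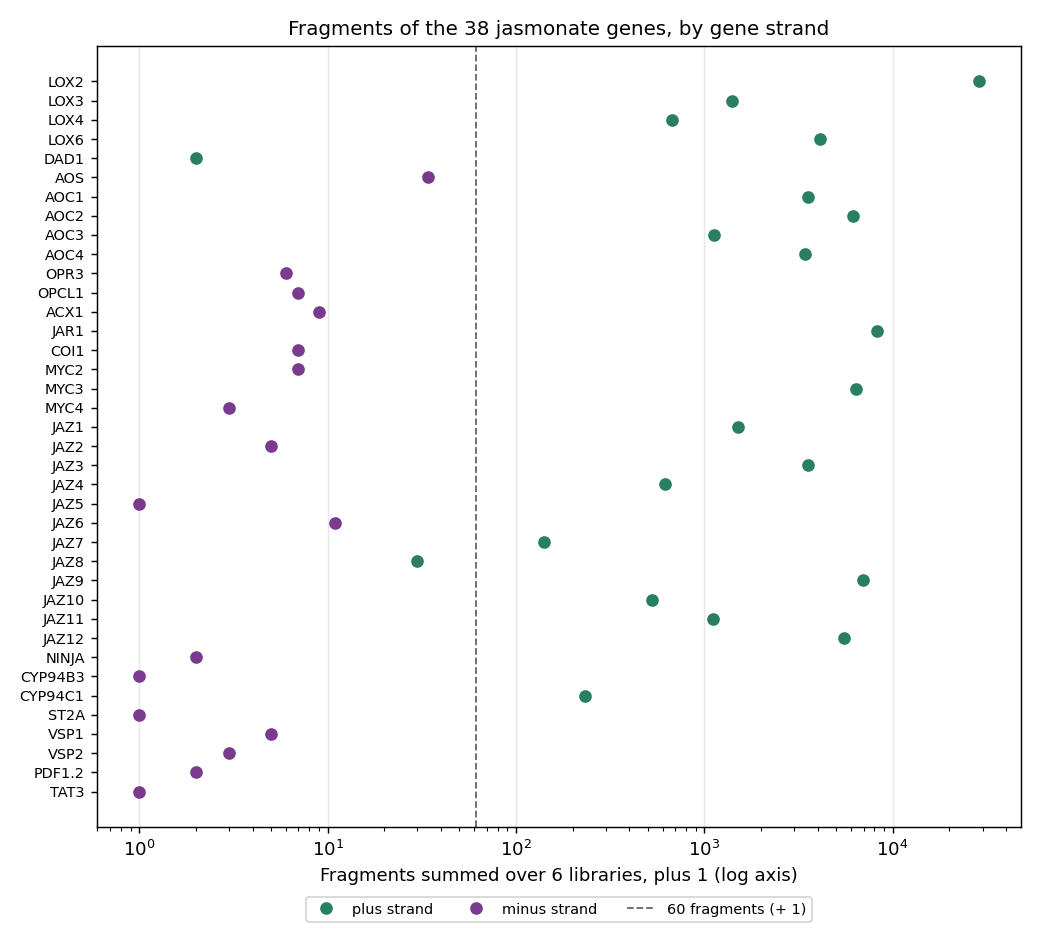
Fragments summed over 6 libraries, plus 1 on a log axis, for each of the 38 jasmonate genes, coloured by gene strand, with a dashed line at 60 fragments. All 17 minus-strand genes lie left of the line, the highest being AOS at 33, and 19 of 21 plus-strand genes lie right of it.

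Among the 19 measured genes 1 rose and 5 fell in cog1-2D, and 13 did not pass the test. JAZ3 rose. LOX6, AOC2, AOC3, JAZ7 and JAZ9 fell. The test was edgeR's quasi-likelihood test with Benjamini-Hochberg adjustment over 10347 genes and a threshold of 0.05. Of all genes tested 36.3% passed, 16.3% higher and 20.0% lower, so that 6 of 19 (31.6%) was close to the share over all genes. The median log2 fold change (cog1-2D over wt) of the 19 genes was -0.25, and that of all genes tested was 0.00. The 3 libraries of each genotype did not overlap in 3 genes higher in cog1-2D (LOX3, JAZ3 and JAZ11) and 6 lower (LOX6, AOC2, AOC3, MYC3, JAZ7 and JAZ9), against 49.8% of all genes tested. Fewer cells of a type and less RNA per cell cannot be told apart in whole seedlings.

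**Figure D2:**
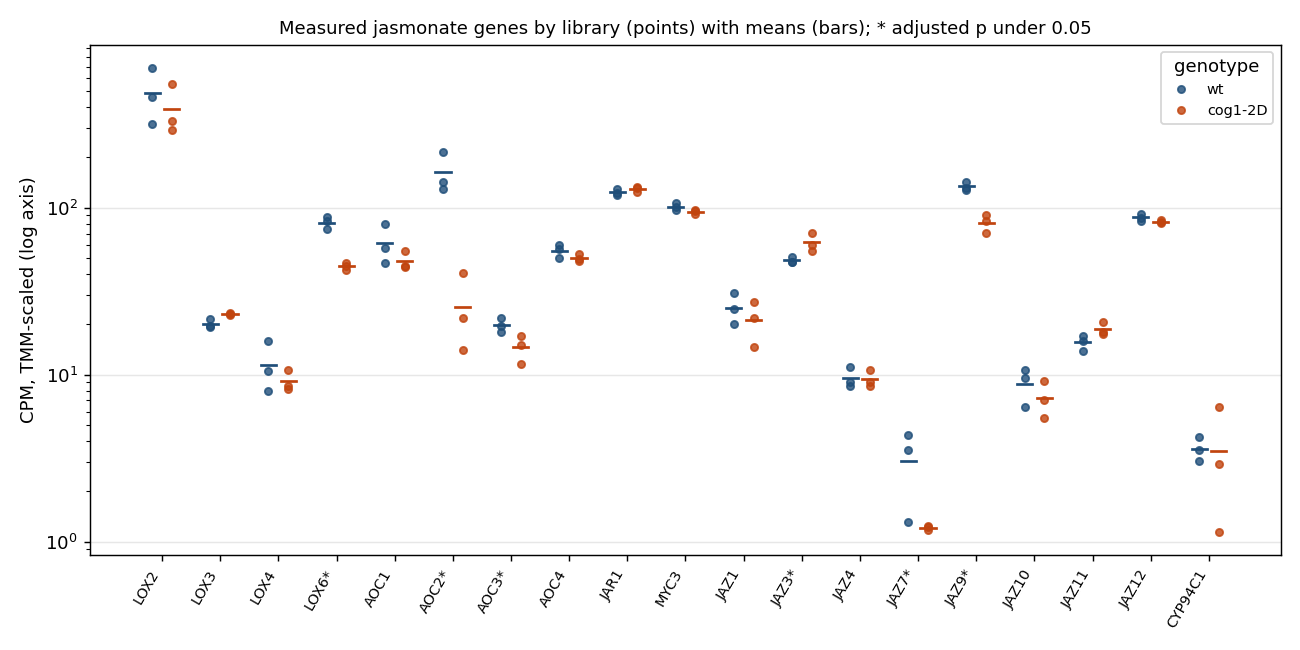
CPM scaled with TMM factors (log axis) of the 19 measured jasmonate genes, 1 point per library, 3 libraries per genotype, with short bars at the means and a star on the 6 genes that passed the test. AOC2 stands out, with cog1-2D libraries between 14.05 and 40.6 CPM and wt libraries between 130 and 215 CPM.

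The allene oxide cyclase genes carried the largest fall of the set. AOC1, AOC2 and AOC3 lie in tandem on the plus strand of chromosome 3 (chr3:9403779-9405338, chr3:9406669-9408071 and chr3:9409160-9411090 in TAIR10.1), within 7312 bases, and AOC4 lies on chromosome 1 (chr1:4547388-4548894). The gap between AOC1 and AOC2 is 1330 bases and that between AOC2 and AOC3 is 1088 bases. Because such copies can exchange reads, the stretch of 90 bases in the second coding exon below shows how far their sequences differ, read from the RefSeq TAIR10.1 genome on the plus strand, at chr3:9407747-9407836 for AOC2, chr3:9405013-9405102 for AOC1, chr3:9410317-9410406 for AOC3 and chr1:4548460-4548549 for AOC4. Capitals in AOC1, AOC3 and AOC4 mark bases that differ from AOC2, and capitals in AOC2 mark the 6 bases that none of the other genes has.
AOC2: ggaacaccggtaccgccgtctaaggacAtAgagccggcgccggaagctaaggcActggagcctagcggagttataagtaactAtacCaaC
AOC1: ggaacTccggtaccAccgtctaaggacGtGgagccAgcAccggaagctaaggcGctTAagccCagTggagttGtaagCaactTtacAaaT
AOC3: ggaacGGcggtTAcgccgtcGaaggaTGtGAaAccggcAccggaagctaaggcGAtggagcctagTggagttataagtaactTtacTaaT
AOC4: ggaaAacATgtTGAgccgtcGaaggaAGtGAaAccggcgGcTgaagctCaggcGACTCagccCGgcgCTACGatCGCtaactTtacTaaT

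Over the whole coding sequence AOC1 and AOC2 were identical at 688 of 762 aligned bases (90.3%), AOC2 and AOC3 at 81.9%, and AOC2 and AOC4 at 72.3%. The printed stretch differs between AOC1 and AOC2 at 16 of 90 bases, so it overstates how far that pair differs as a whole. Windows of 50 exonic bases that occur elsewhere in the genome made up 1 of 1202 in AOC2, 24 of 1093 in AOC1, 25 of 1562 in AOC3 and none in AOC4. Nearly all AOC2 windows were thus its own at that length.

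AOC2 (AT3G25770) had 14.05, 22.0 and 40.6 CPM in cog1-2D replicates 0, 1 and 2 and 143, 130 and 215 CPM in the wt replicates. The highest mutant library was below the lowest wt library by a wide margin, and the means were 25.5 ± 13.6 and 163 ± 46.1 CPM (SD, n = 3). AOC2 fell by 2.66 ± 0.32 (SE) on the log2 scale, 6.34-fold, with an adjusted p of 0.000247 by edgeR. Every alternative that kept AOC2 as a feature of its own, leaving out each library included, kept this call.

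AOC3 (AT3G25780) had 15.1, 11.6 and 17.01 CPM in cog1-2D and 21.8, 18.0 and 19.7 CPM in wt. The groups were separate but close to each other. Its log2 fold change was -0.45 ± 0.14, with an adjusted p of 0.0357 by edgeR, and the call rested on single libraries. Without cog1-2D replicate 0, cog1-2D replicate 1, wt replicate 0 or wt replicate 2 the adjusted p of AOC3 was 0.0679, 0.1002, 0.0972 or 0.0710 by edgeR, and with DESeq2 it was 0.0529.

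AOC1 (AT3G25760) had 43.9, 44.7 and 55.4 CPM in cog1-2D and 57.4, 46.4 and 79.4 CPM in wt, and the groups overlapped. Its log2 fold change of -0.35 ± 0.18 missed the threshold, with an adjusted p of 0.159 by edgeR. Without wt replicate 1, the lowest wt library, AOC1 passed, with a log2 fold change of -0.51 and an adjusted p of 0.0306. AOC4 (AT1G13280) had 49.5, 48.1 and 52.6 CPM in cog1-2D and 56.6, 49.7 and 59.8 CPM in wt, with overlapping groups, a log2 fold change of -0.14 ± 0.08 and an adjusted p of 0.184 by edgeR.

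Per length, AOC2 was the most abundant cyclase gene of wt and the third of cog1-2D. Its deposited FPKM values were 127, 117 and 192 in wt and 12.6, 19.7 and 36.6 in cog1-2D. The mean FPKM in wt was 145 ± 41.0 for AOC2, 60.6 ± 16.5 for AOC1, 47.6 ± 4.19 for AOC4 and 13.3 for AOC3. In cog1-2D the mean FPKM was 48.0 ± 6.53 for AOC1, 43.4 ± 2.09 for AOC4, 23.0 ± 12.3 for AOC2 and 9.84 for AOC3. AOC1 was above AOC4 in each of the 6 libraries, by as little as 43.8 against 42.8 FPKM in cog1-2D replicate 0 and by as much as 78.7 against 51.4 FPKM in wt replicate 2. AOC2 led in each wt library and was the third in each cog1-2D library. Its share of the fragments of all 4 cyclase genes was 51.3%, 53.2% and 57.5% in wt and 11.5%, 17.4% and 24.5% in cog1-2D.

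The sum over the 4 cyclase genes does not depend on how reads were split among copies. It was 122.6, 126.3 and 165.6 CPM in cog1-2D and 279, 243.7 and 374 CPM in wt, and these groups did not overlap. Fitted as 1 feature, an alternative chosen after seeing the data, the sum fell by 1.11 ± 0.16 on the log2 scale, 2.16-fold, with an adjusted p of 0.000788 by edgeR. This sum includes AOC2. AOC1, AOC3 and AOC4 together were at 108.5, 104.3 and 125.0 CPM in cog1-2D and 135.8, 114.1 and 158.8 CPM in wt, and these groups overlapped.

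**Figure D3:**
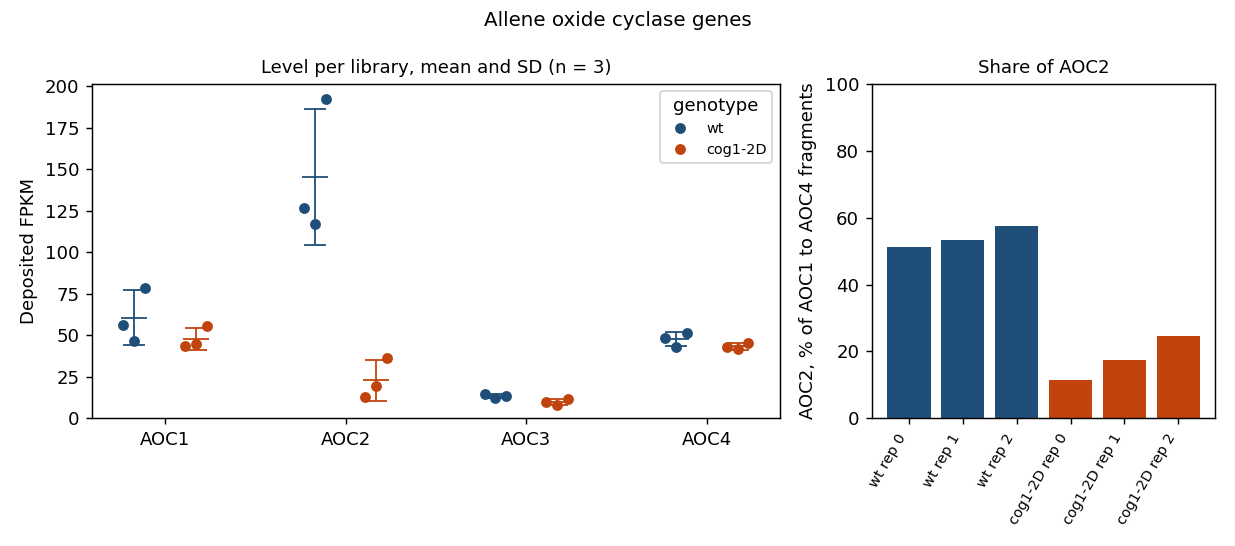
Left, deposited FPKM of AOC1 to AOC4, 1 point per library, with mean and SD (n = 3) for each genotype. Right, AOC2's share in percent of the fragments of all 4 cyclase genes in each library, between 51.3% and 57.5% in wt and between 11.5% and 24.5% in cog1-2D.

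Of the 4 measured lipoxygenase genes, LOX6 fell and LOX2, LOX3 and LOX4 did not pass the test. LOX6 (AT1G67560), known for jasmonate made in roots and early after wounding, had 42.4, 46.6 and 44.8 CPM in cog1-2D and 74.1, 82.7 and 87.6 CPM in wt. The genotypes were well apart and varied little within themselves, with means of 44.6 ± 2.09 and 81.5 ± 6.82 CPM (SD, n = 3). LOX6 fell by 0.87 ± 0.08 on the log2 scale, 1.83-fold, with an adjusted p of 3.05e-05 by edgeR, and kept the call in every alternative run. Of 7 root marker genes 5 were tested and 3 fell (SCR, GL2 and HKT1), against 20.0% of all genes tested. Their log2 fold changes were -0.30, -0.28 and -1.47, with adjusted p of 0.0257, 0.0438 and 7.76e-05 by edgeR. SHR, with a log2 fold change of -0.21 and an adjusted p of 0.111, and WOX5, with 0.26 and 0.577, did not pass by edgeR. The summed level of the 7 genes was 109 to 125 CPM in cog1-2D and 134 to 155 CPM in wt. The other root markers, TIP2;3 and CASP1, lie on the minus strand and were not tested. The part of root tissue in the fall of LOX6 was not tested.

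LOX2 (AT3G45140), the chloroplast lipoxygenase behind most wound-induced jasmonate of leaves, had the most fragments of the measured genes. It had 292, 329 and 551 CPM in cog1-2D and 459, 315 and 688 CPM in wt. The spread within each genotype was larger than the difference between them, the highest wt library being 2.18 times the lowest and the highest mutant library 1.89 times the lowest. Its log2 fold change was -0.32 ± 0.29, with an adjusted p of 0.430 by edgeR. LOX3 (AT1G17420), which acts with LOX4 in male fertility, had 23.1, 23.5 and 22.9 CPM in cog1-2D and 19.2, 21.6 and 19.7 CPM in wt, higher in each mutant library than in any of wt. The log2 fold change of LOX3 was 0.20 ± 0.08 and its adjusted p of 0.0724 by edgeR missed the threshold. LOX4 (AT1G72520) had 8.24, 8.50 and 10.7 CPM in cog1-2D and 15.8, 10.4 and 8.003 CPM in wt, which overlap, with an adjusted p of 0.309 by edgeR. Per length the lipoxygenase genes kept 1 order in both genotypes, with mean FPKM in wt of 170 ± 65.3 for LOX2, 25.5 for LOX6, 6.85 for LOX3 and 3.93 for LOX4.

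Conjugation and transcription factors were represented by 1 measured gene each, and neither passed the test. JAR1 (AT2G46370), the enzyme that makes the active isoleucine conjugate, had 133, 124 and 131 CPM in cog1-2D and 120, 123 and 130 CPM in wt. Its log2 fold change was 0.06 ± 0.05, with an adjusted p of 0.431 by edgeR, so any difference was small beside the level. MYC3 (AT5G46760), a relative of MYC2 that shares much of its work, had 95.8, 96.6 and 91.0 CPM in cog1-2D and 101, 106 and 97.3 CPM in wt. All mutant values of MYC3 were below all wt values, by little, and the log2 fold change of -0.10 ± 0.06 missed the threshold with an adjusted p of 0.173 by edgeR.

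Of the 12 JAZ genes 8 were measured, of which 1 rose, 2 fell and 5 did not pass the test, with a median log2 fold change of -0.17. The promoters of JAZ3 and JAZ7 are shown because they alone among the 19 measured genes held a G-box (CACGTG, the same on both strands), the letters that MYC factors are known to bind. Those of AOC1 and AOC2 are shown as neighbours of which 1 fell strongly. Each runs from 250 bases before to 50 bases after the annotated start, 5′ to 3′ on the plus strand of RefSeq TAIR10.1, at chr3:6119457-6119756 for JAZ3, chr2:14572780-14573079 for JAZ7, chr3:9406419-9406718 for AOC2 and chr3:9403529-9403828 for AOC1. Capitals mark CACGTG and the related letters AACGTG, which read CACGTT on the other strand.
JAZ3: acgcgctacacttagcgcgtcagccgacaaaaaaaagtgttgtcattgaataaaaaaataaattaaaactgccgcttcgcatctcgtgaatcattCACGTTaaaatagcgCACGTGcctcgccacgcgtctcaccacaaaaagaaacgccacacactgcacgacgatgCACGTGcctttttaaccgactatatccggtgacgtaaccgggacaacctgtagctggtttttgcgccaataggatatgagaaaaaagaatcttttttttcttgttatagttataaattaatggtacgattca
JAZ7: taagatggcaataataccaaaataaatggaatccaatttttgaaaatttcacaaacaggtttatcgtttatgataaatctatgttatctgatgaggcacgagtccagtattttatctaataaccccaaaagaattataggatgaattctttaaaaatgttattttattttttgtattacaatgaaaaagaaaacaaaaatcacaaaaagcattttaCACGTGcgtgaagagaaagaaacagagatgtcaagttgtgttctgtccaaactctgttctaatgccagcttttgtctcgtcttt
AOC2: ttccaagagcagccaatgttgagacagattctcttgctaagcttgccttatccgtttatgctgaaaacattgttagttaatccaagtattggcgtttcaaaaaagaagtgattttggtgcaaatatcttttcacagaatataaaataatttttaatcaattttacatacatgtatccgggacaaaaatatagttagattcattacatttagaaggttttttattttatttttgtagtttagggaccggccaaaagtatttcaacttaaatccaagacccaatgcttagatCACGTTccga
AOC1: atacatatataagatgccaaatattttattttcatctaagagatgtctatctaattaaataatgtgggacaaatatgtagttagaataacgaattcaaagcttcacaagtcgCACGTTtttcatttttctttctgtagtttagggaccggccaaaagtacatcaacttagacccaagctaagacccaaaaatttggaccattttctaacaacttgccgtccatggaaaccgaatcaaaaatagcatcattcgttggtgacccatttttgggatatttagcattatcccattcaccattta

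JAZ3 held CACGTG at 140 and 82 bases before its start, and JAZ7 held it at 34 bases before. JAZ3 rose and JAZ7 fell, so the genes with this motif did not move one way. The motif was in 7.68% of 27443 promoters of this length and in 8.89% of those of genes tested. AACGTG, on either strand and not overlapping CACGTG in these windows, was in 8.95% of all promoters and in 6 of the 19 genes (LOX3, LOX4, AOC1, AOC2, JAZ3 and JAZ12). It lay 138 bases before the start of AOC1 and 40 bases past the first base of AOC2. GCCGCC, searched on both strands as the letters bound by ethylene response factors, was in 2.57% of all promoters and in none of the 19. The windows of AOC1 and AOC2 shared a run of 26 bases, tgtagtttagggaccggccaaaagta, which began 117 bases before the start of AOC1 and 19 bases before that of AOC2. A match describes these letters only.

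JAZ9 (AT1G70700) had 89.99, 82.8 and 70.4 CPM in cog1-2D and 143, 131 and 128 CPM in wt. All 3 mutant libraries were below all 3 of wt, with means of 81.0 ± 9.92 and 134 ± 7.84 CPM (SD, n = 3). JAZ9 fell by 0.73 ± 0.09 on the log2 scale, 1.66-fold, with an adjusted p of 0.000246 by edgeR, and every alternative run kept the call.

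JAZ3 (AT3G17860), the only one of the 19 that rose, had 70.5, 60.1 and 55.0 CPM in cog1-2D and 47.5, 50.5 and 47.1 CPM in wt. The groups were separate, while the mutant libraries varied more, with means of 61.9 ± 7.90 and 48.4 ± 1.87 CPM (SD, n = 3). JAZ3 rose by 0.36 ± 0.09 on the log2 scale, with an adjusted p of 0.0146 by edgeR, which stayed under the threshold in every alternative run, up to 0.0455.

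JAZ7 (AT2G34600), whose protein can bind the corepressor TOPLESS directly, was the scarcest measured gene. It had 13 fragments in each of the cog1-2D libraries and 50, 37 and 14 fragments in wt replicates 0, 1 and 2, or 1.21 ± 0.033 and 3.06 ± 1.56 CPM (SD, n = 3). The mutant libraries were alike, and wt replicate 2 lay close to them. JAZ7 fell by 1.34 ± 0.42 on the log2 scale, with an adjusted p of 0.0349 by edgeR. The call was lost without cog1-2D replicate 0 (adjusted p 0.0843), 1 (0.0964) or 2 (0.0919), without wt replicate 0 (0.121) or 1 (0.0788), and with limma on log2 FPKM (0.0781 and 0.0795). Without wt replicate 2 it was kept, with an adjusted p of 0.0020 by edgeR.

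The other 5 measured JAZ genes did not pass the test. JAZ12 (AT5G20900), kept stable by the ubiquitin ligase KEG, had 80.7, 83.9 and 82.0 CPM in cog1-2D and 87.3, 82.8 and 92.1 CPM in wt, with an adjusted p of 0.262 by edgeR. JAZ11 (AT3G43440) had 17.9, 20.6 and 17.5 CPM in cog1-2D and 15.9, 13.8 and 17.1 CPM in wt. Its mutant values were all above its wt values, by a log2 fold change of 0.26 ± 0.11, and the adjusted p was 0.0989 by edgeR, or 0.0438 and 0.0440 by limma on log2 FPKM. JAZ1 (AT1G19180), among the first JAZ repressors for which degradation by the hormone was shown, had 14.6, 21.8 and 27.2 CPM in cog1-2D and 30.9, 20.0 and 24.6 CPM in wt. JAZ10 (AT5G13220), which makes splice forms that resist degradation, had 5.53, 7.06 and 9.14 CPM in cog1-2D and 10.597, 9.496 and 6.40 CPM in wt. JAZ1 and JAZ10 each varied by at least 1.54 times between libraries of a genotype, and their log2 fold changes were -0.25 ± 0.22 and -0.29 ± 0.23. JAZ4 (AT1G48500) had a log2 fold change of -0.03 ± 0.14, between 8.50 and 11.1 CPM in all 6 libraries.

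The order of the JAZ genes by level differed between the genotypes at the top. Mean FPKM in wt was 115 ± 5.69 for JAZ9 and 97.6 ± 4.81 for JAZ12, and in cog1-2D it was 66.7 ± 7.49 for JAZ9 and 92.5 ± 1.91 for JAZ12. Below them JAZ3 had a mean FPKM of 31.9 in wt and 40.9 in cog1-2D. JAZ1 and JAZ11 followed, at 20.3 and 15.0 in wt and 17.1 and 19.4 in cog1-2D. The difference in cog1-2D was smaller than the SD of JAZ1 there, 5.19 FPKM, and in cog1-2D replicate 2 JAZ1 was above JAZ11, at 22.1 against 17.6 FPKM. JAZ4, JAZ10 and JAZ7 were lowest in both genotypes, at 7.49, 7.18 and 4.84 FPKM in wt. JAZ4 and JAZ10 differed there by less than the spread of JAZ10 between libraries. JAZ12 overlaps a minus-strand noncoding RNA by 211 bases and AIP2 by 28 bases, and JAZ10 overlaps another noncoding RNA by 71 bases. AIP2 held 4 fragments over the 6 libraries and both noncoding RNAs held 0.

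Of the 3 turnover genes only CYP94C1 (AT2G27690), an oxidase that inactivates the isoleucine conjugate, was measured. It had 2.90, 1.15 and 6.42 CPM in cog1-2D and 3.04, 3.51 and 4.24 CPM in wt. The mutant libraries spanned a 5.61-fold range that contained all wt values, and its log2 fold change was -0.03 ± 0.47.

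Of the 19 measured genes 13 varied between libraries of 1 genotype more than the median gene tested, and 6 varied less (LOX3, LOX6, AOC4, JAR1, MYC3 and JAZ12). Their median biological coefficient of variation (the spread between replicates beyond counting error, as edgeR estimates it per gene) was 0.0972, against 0.0698 over all genes tested. Of the 19 genes 8 lay in the top 10% of all genes tested by this measure, namely LOX2, LOX4, AOC1, AOC2, JAZ1, JAZ7, JAZ10 and CYP94C1.

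Single libraries recurred in this spread. In 6 of the 19 genes (31.6%) cog1-2D replicate 2 was the highest of its genotype while wt replicate 1 was the lowest of its own, against 12.4% of all genes tested. These were LOX2, AOC1 to AOC4 and JAZ1. This combination was picked from many possible orders with the values known, so its share is a description only. LOX2, AOC1, AOC2, AOC4 and CYP94C1 were highest in replicate 2 of both genotypes. LOX4, JAZ7, JAZ9 and JAZ10 were highest in wt replicate 0 and lowest in wt replicate 2. The share of all genes tested with either order was not computed. Of 4 seed markers CRC, a seed storage protein gene, also stood high in cog1-2D replicate 2, with 369 fragments against 0 in the other mutant libraries and 10, 1 and 0 in wt. OLEO1 had 3, 2 and 20 fragments in cog1-2D and 17, 0 and 2 in wt, CRA1 had 1 fragment in all and SESA1 had 0. Their part in the jasmonate values was not tested.

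**Figure D4:**
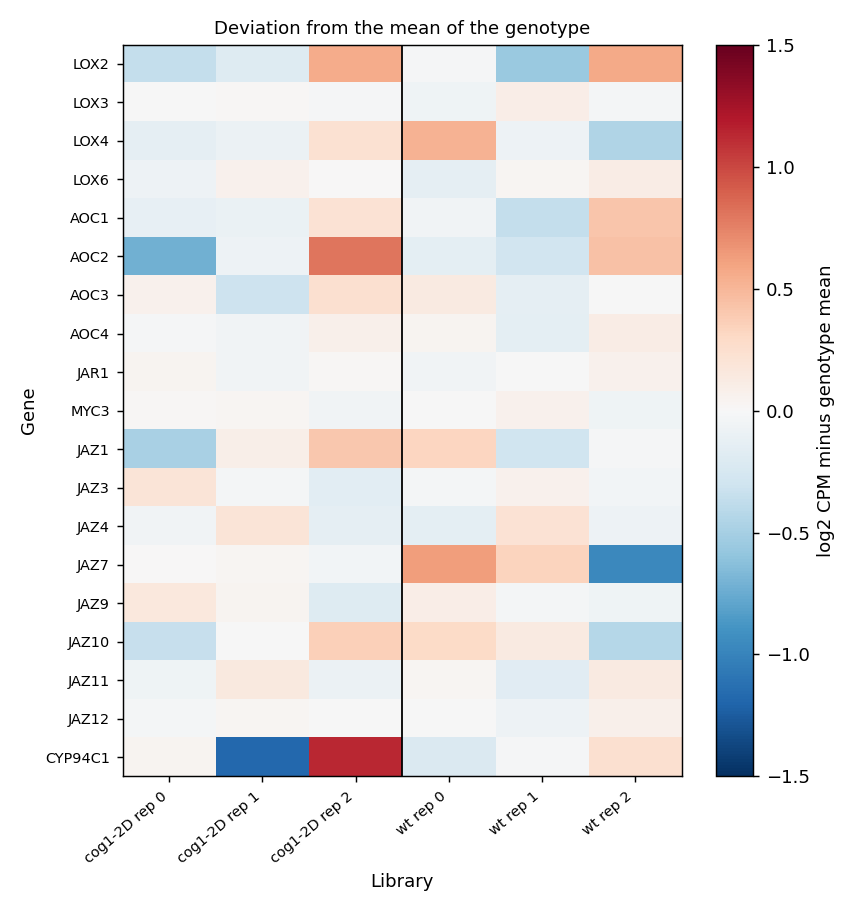
Log2 CPM of each measured jasmonate gene minus the mean of its genotype, for the 6 libraries, red above and blue below the mean. Among others, LOX2, AOC1, AOC2, JAZ1 and CYP94C1 are red in cog1-2D replicate 2. LOX4, JAZ7 and JAZ10 are red in wt replicate 0 and blue in wt replicate 2.

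The authors' deposited table of changed genes, made with Cuffdiff, lists 9 of the 19 measured genes (47.4%), and 29.8% of all genes with 60 or more fragments. It holds the 6 genes that passed here together with LOX2, AOC1 and JAZ11. In the authors' deposited table LOX2 has a log2 fold change of -0.31 and a q-value of 0.0233, AOC1 of -0.34 and 0.0109, and JAZ11 of 0.37 and 0.0280. The fold changes of LOX2 and AOC1 were close to those of the fit here.

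Other genes of the pathway, 56 in all, were taken by textbook role. Of these 28 lie on the minus strand, 23 were tested, all on the plus strand, and 4 rose and 8 fell (52.2%, against 36.3% of all genes tested). JOX1, among those that rose, and MYC5, among those that fell, had under 60 fragments and entered the test only through the genotype in which they were high. Of the 21 with 60 fragments or more, 3 rose and 7 fell (47.6%). The list was made with earlier results of these data known, so both shares are descriptions only. The median log2 fold change of the 23 was -0.07.

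In synthesis 2 genes rose and 3 fell. ACX5, an acyl-CoA oxidase of the peroxisomal chain shortening and a relative of the unmeasured ACX1, had 91.7, 94.3 and 91.5 CPM in cog1-2D and 39.5, 38.3 and 41.1 CPM in wt. It rose by 1.22 ± 0.06 on the log2 scale, with an adjusted p of 6.22e-07 by edgeR, and the genotypes were far apart. FAD7, a plastid desaturase that makes linolenic acid, had 925 ± 36.5 CPM in cog1-2D and 645 ± 27.4 CPM in wt (SD, n = 3) and rose by 0.52 ± 0.06 on the log2 scale. Its relative FAD8 fell by 0.22 ± 0.07, with an adjusted p of 0.0318 by edgeR, which was lost (0.0779 to 0.119) without cog1-2D replicate 1 or 2 or wt replicate 0 or 1. Exonic windows of 50 bases that occur elsewhere in the genome made up 202 of 1389 in FAD8 and 17 of 1697 in FAD7. The assignment of fragments to FAD8 is therefore uncertain, and its part in this small fall was not tested. OPR1 and OPR2, reductases related to OPR3, fell by 0.35 ± 0.08 and 0.43 ± 0.07 on the log2 scale. OPR1 and OPR2 overlap each other by 216 bases on 1 strand and share sequence (4.33% and 5.81% of their exonic windows of 50 bases occur elsewhere), so their split is uncertain. HPL1, listed under a branch that competes for lipid hydroperoxides, had a mean of 7.71 CPM in cog1-2D and 3.21 CPM in wt. It rose by 1.26 ± 0.16 on the log2 scale. Whether the HPL1 product was active in these plants was not tested.

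JOX1 and JOX2 encode jasmonate hydroxylases, which inactivate the hormone. JOX1 had 20, 16 and 14 fragments in cog1-2D and 3, 3 and 0 fragments in wt, a ratio of 8.45 with a counting interval (95%) of 3.62 to 24.1, given as a description since JOX1 was under the limit of 60 fragments. JOX2, with a mean of 20.0 CPM in cog1-2D and 34.0 CPM in wt, fell by 0.76 ± 0.21 on the log2 scale, with an adjusted p of 0.0209 that was lost without cog1-2D replicate 0 (0.0619), cog1-2D replicate 1 (0.0825) or wt replicate 2 (0.0683) by edgeR.

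Among regulators MYC5, a MYC factor of stamen development, had 3, 1 and 0 fragments in cog1-2D and 17, 18 and 15 fragments in wt. Its ratio, higher in wt, was 12.3 with a counting interval (95%) of 4.52 to 47.0, likewise a description. JAM2, a repressor that opposes MYC2, fell by 0.39 ± 0.07 on the log2 scale, and its relative JAM3 had -0.03 ± 0.06 and did not pass. RAP2.6, an ethylene response factor gene that responds to jasmonate, fell by 0.85 ± 0.25, with an adjusted p of 0.0271 that was lost without cog1-2D replicate 2 (0.0537), wt replicate 0 (0.0722) or wt replicate 2 (0.0687) by edgeR. GLR3.6, a glutamate receptor-like channel of wound signalling between leaves, fell by 0.41 ± 0.08. SKP1 and CUL1, subunits of the ubiquitin ligase that holds COI1, had log2 fold changes of -0.03 ± 0.05 and 0.00 ± 0.05.

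CORI3, a coronatine- and jasmonate-induced gene, was the response marker on the plus strand with the most fragments. It had 69.5, 79.8 and 105 CPM in cog1-2D and 64.9, 33.9 and 96.8 CPM in wt, and the groups overlapped. Its log2 fold change of 0.38 ± 0.31 did not pass, with an adjusted p of 0.370 by edgeR. The authors' deposited table lists CORI3 as changed, with a log2 fold change of 0.38 and a Cuffdiff q-value of 0.00356. CORI3 was highest in replicate 2 of both genotypes and lowest in wt replicate 1, the libraries in which LOX2 and AOC2 were highest and lowest within wt.

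**Figure D5:**
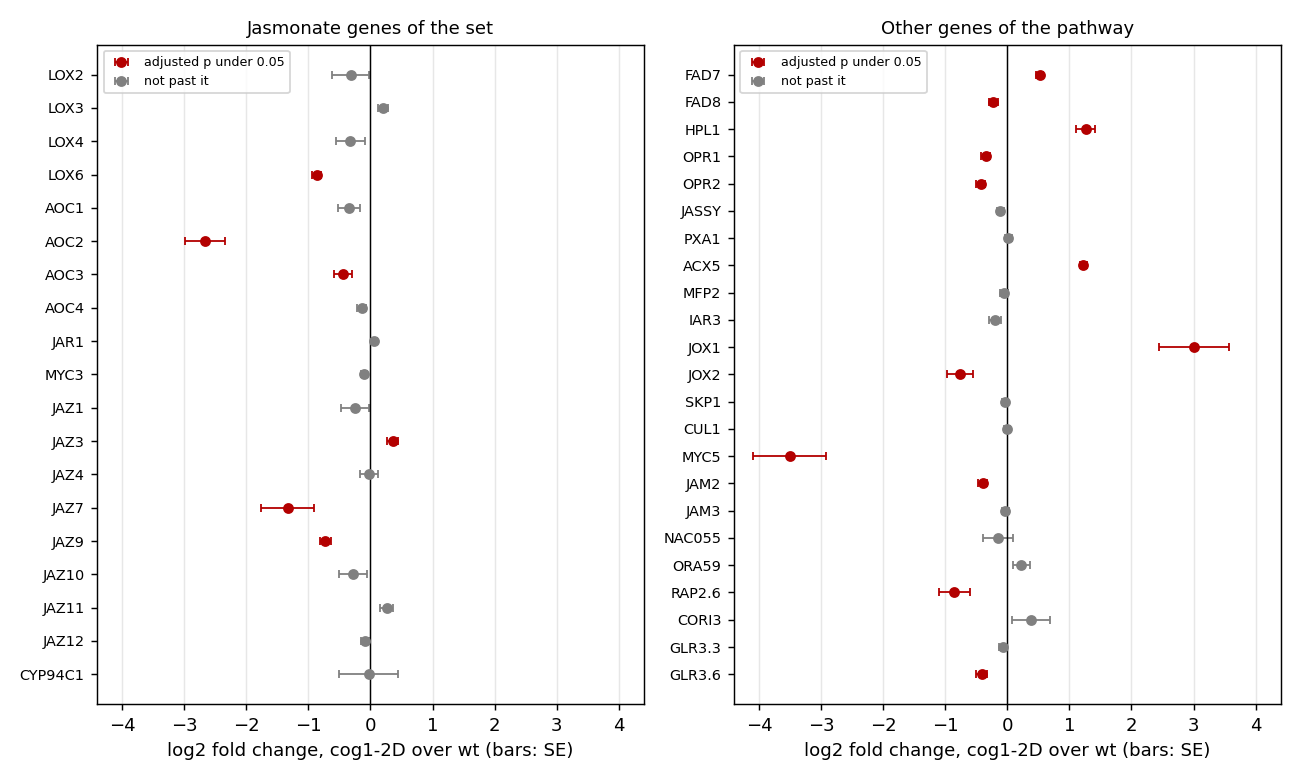
Log2 fold change (cog1-2D over wt) with SE for the 19 measured jasmonate genes and for the 23 tested other genes of the pathway, coloured by whether the adjusted p was under 0.05. AOC2 at -2.66 is the lowest of the first panel, and MYC5 and JOX1, both under 60 fragments, are the lowest and highest of the second.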

How the data were processed

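The submitters' processing notes name Trimmomatic 0.36, Cufflinks 2.2.1, Cuffdiff, HISAT2 2.1.0 and the build TAIR10. What each did, and how strand was counted, is not given in the sources used here, and the libraries were made with a stranded kit, per the labels' protocols. The deposited table gives expected counts of fragments, by gene and by library, together with FPKM (per length and library size), per the file headers. The authors' deposited table of changed genes holds log2 fold changes and Cuffdiff q-values.

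Expected counts (98.1% whole within 1e-06) were rounded and tested with edgeR 4.0.16 in R 4.3.3 (filterByExpr, TMM factors, genotype the only term, all 6 libraries). CPM uses TMM factors. FPKM was used only for levels between genes and for limma 3.58.1. Positions and sequences are from RefSeq TAIR10.1, and 32225 of 33617 genes matched it. Coding sequences were aligned with MAFFT 7.526. The fit was tested on simulated data.

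All 38 genes, all other pathway genes that were called, and relatives of the 38 are named, with marker genes as groups. The genes and lists were chosen with earlier results of these data known. PDF1.2b and NATA1 are named after their values were seen, as are uncalled pathway genes. Alternatives were DESeq2 1.42.0, RLE or upper-quartile factors, other filters, robust dispersion, limma, a replicate block, plus-strand genes only and leaving out each library. Over all genes tested, the deviations of same-numbered libraries had correlations of -0.015, -0.016 and 0.11, so the numbers were not taken as pairs. These correlations do not describe the jasmonate genes alone.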

Additional observations from a re-analysis of the deposited data

How the results depend on the processing

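Of the 19 jasmonate genes 4 to 7 were called in every alternative run (4 to 6 without 1 library), of the other pathway genes 10 to 13, and of all genes 2683 to 4093. LOX6, AOC2, JAZ9 and JAZ3 were called in each alternative that kept them as features. AOC3, JAZ7, FAD8, JOX2 and RAP2.6 lost their calls in some, and AOC1 and JAZ11 gained one in some. AOC1 was called with no low-count filter (adjusted p 0.00598 by edgeR). With the replicate number as a block, 4093 genes, 7 jasmonate genes (AOC1 added, adjusted p 0.0247 by edgeR) and 12 other pathway genes were called. LOX2 was not called with the block, but its adjusted p by edgeR went from 0.430 to 0.0773. Upper-quartile factors gave 1896 higher and 1936 lower calls, against 1686 and 2066. Leaving out 1 library turned the sign of 3 genes that were never called: LOX2 ranged from -0.65 to 0.015, JAZ4 from -0.13 to 0.092 and CYP94C1 from -0.82 to 0.38 on the log2 scale. On log2(FPKM + 1) the changes of JOX1 and MYC5 were 0.87 and -0.84, since the pseudocount shrinks low genes. The cause of the other differences was not tested.

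JAZ7, CYP94C1, JOX1 and MYC5 had few fragments. JAZ7 and CYP94C1 also varied between libraries beyond counting error, with biological coefficients of variation of 0.293 and 0.390. The 17 minus-strand genes were limited by the missing strand. COI1, MYC2, AOS, OPR3 and VSP2 were therefore not analysed here beyond their fragments.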

Other observations

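Jasmonate response genes with few fragments included a pair that were high in replicate 2 of both genotypes. NATA1, an acetyltransferase gene induced by jasmonate, had 0, 0 and 15 fragments in cog1-2D replicates 0, 1 and 2 and 5, 0 and 44 in wt. PDF1.2b, a defensin gene, had 0, 1 and 16 fragments in cog1-2D and 6, 1 and 14 in wt. Neither was tested here, and both were chosen after their values were seen. The authors' deposited table lists NATA1 as changed, with a log2 fold change of -1.74 and a Cuffdiff q-value of 0.0234.

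TGG2, a myrosinase gene of the myrosin cells that hold defence enzymes, had 2.34, 1.81 and 0.905 CPM in cog1-2D and 729, 829 and 876 CPM in wt. The other myrosin cell markers, TGG1 and FAMA, lie on the minus strand. TGG1 had 64 fragments in cog1-2D and 109 in wt and did not pass, with an adjusted p of 0.254 by edgeR. FAMA had 2 fragments in all. The flower marker PI, a floral organ identity gene, had 2.25, 3.06 and 2.17 CPM in cog1-2D and 1.04, 1.14 and 1.13 CPM in wt. PI passed the test with an adjusted p of 0.00817 by edgeR. AG, the other flower marker on the plus strand, had 11 fragments in cog1-2D and 9 in wt. On the minus strand SEP3 had 8 fragments in all and AP3 had 0. Whether a cell type or flowering differed between the genotypes was not tested.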
